A study of Mus musculus with 6 samples.

Results

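The CCR4-NOT and PAN deadenylases shorten the poly(A) tails of cytoplasmic mRNAs, and their own mRNAs carry poly(A) tails that can be measured in the same libraries. The genes were chosen by symbol, from a list of 10 names (Cnot1, Cnot2, Cnot3, Cnot6, Cnot6l, Cnot7, Cnot8, Pan3, Parn and Tob1), as every contig whose symbol matched one of them when case was ignored. Of these 10 genes, 6 had a contig, with 10 contigs and 809 reads in all, out of 6985 gene symbols and 11517 annotated transcripts. Cnot3, Cnot6l, Cnot8 and Parn were not analysed here.

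CCR4-NOT is built on the scaffold protein CNOT1. CNOT2 and CNOT3 form a module on one end of the scaffold that is needed for the integrity of the complex. Tail removal is carried out by a pair of nucleases, an enzyme of the CAF1 family (CNOT7 or CNOT8) bound directly to CNOT1 and an enzyme of the CCR4 family (CNOT6 or CNOT6L) bound to the first. PAN3 is the subunit of the PAN2-PAN3 deadenylase that contacts the poly(A)-binding protein, TOB1 links the CAF1 enzymes to the poly(A)-binding protein, and PARN is a separate nuclease best known for trimming non-coding RNAs. In the testis, mRNAs made in spermatocytes and round spermatids (RS) are kept for days before they are translated, and mice without Cnot7 are known for male infertility with defects of spermatids.

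The mRNAs were compared between pachytene and diplotene (P/D) spermatocytes, which are in meiotic prophase, and RS, the haploid cells formed by the meiotic divisions. Both cell types were sorted on Hoechst fluorescence and light scatter from testes of untreated wild-type adult C57BL/6J/B6 male mice. Propidium iodide served to exclude dead cells. Each of the 6 samples, 3 per cell type, is a pool of mRNA of 3 mice, and per the methods both cell types were taken from the same mice. Tests here treat the 6 samples as independent unless a block is named. Nanopore direct RNA sequencing reads native mRNA molecules from the 3′ end, so that each read gives 1 molecule and its tail. All P/D samples were run as 1 multiplexed library and all RS samples as a second one. An effect of the library and an effect of the cell type cannot be told apart in any comparison given here.

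The samples held between 244004 and 474688 reads. The 10 round spermatid markers had contigs and took 0.309% to 0.317% of the reads in RS and 0.038% to 0.053% in P/D samples, and the 10 P/D spermatocyte markers took 0.637% to 0.701% and 0.816% to 0.884%. In the test of accumulation used below, 6 of these 10 P/D markers were lower in RS and 2, Adam3 and Tbpl1, were higher. Ccna1 and Mael did not pass. Elongating spermatid markers (10 of 10 with a contig) ranged from 2.48% to 3.05% of the reads in RS and from 0.304% to 0.380% in P/D samples. Per the study, mRNAs of protamines, transition proteins, Smcp and Odf1, all in this list, are already made in RS. This share therefore does not measure elongating cells. Of 8 genes listed as leptotene and zygotene markers 2 had a contig, Spo11 and Tex101, with 0.036% to 0.041% of the reads in P/D samples and 0.006% to 0.010% in RS. Whether these 2 genes are limited to those cells was not tested, so their share does not measure earlier meiotic cells. Per the microscopy of the study, a large part of the cells in the P/D gate were not P/D spermatocytes, while the RS gate held mostly RS. Markers of spermatogonia (1 of 8 with a contig), Sertoli cells (3 of 8) and Leydig cells (2 of 8) had at most 7 reads in a sample, and none of the 8 macrophage and red blood cell markers had a contig. The part of other cells in the differences below was not tested. In sorted bulk samples, fewer cells of a type and less RNA per cell cannot be told apart.

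The 3′ ends of the transcripts are shown first because the tail of each read starts there. They are the last 30 bases of 1 contig per gene in GENCODE vM21 (GRCm38), on the strand of the transcript, with the poly(A) signals AATAAA and ATTAAA in capitals. The annotated end is not the cleavage site of each read. All lie in the 3′ untranslated region of the last exon.
Cnot1 (ENSMUST00000098473, chr8:95719451-95719480, minus strand): cagaagagggcatcagctcccactacagat
Cnot2 (ENSMUST00000105267, chr10:116485166-116485195, minus strand): tctttgtAATAAAgtagaaaagctctcctc
Cnot6 (ENSMUST00000145353, chr11:49671503-49671532, minus strand): ccaaccAATAAAttcaatatctgtttcaaa
Cnot7 (ENSMUST00000034012, chr8:40492540-40492569, minus strand): taAATAAAggcttcaaaaatgttttcctat
Pan3 (ENSMUST00000176600, chr5:147548467-147548496, plus strand): tattttttAATAAAgaattgcagaAATAAA
Tob1 (ENSMUST00000041589, chr11:94215466-94215495, plus strand): gtttgtATTAAAattctttaaaATTAAAaa

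Cnot2, Cnot6, Cnot7 and Pan3 hold AATAAA in this window, Tob1 holds ATTAAA and Cnot1 holds neither. Both signals were searched on the transcript strand only, and they do not overlap each other in these windows. Of 11344 transcripts with a sequence, 53.1% hold AATAAA in their last 30 bases, a further 13.3% hold ATTAAA alone, and 33.7% hold neither. The Cnot1, Cnot2 and Cnot7 genes are each read on more than 1 contig. Their 3′ ends lie 1 nt apart for Cnot2, 2 nt apart for Cnot7 and 7 to 705 nt apart for Cnot1, so the contigs of a gene differ little in the window shown, other than ENSMUST00000213006 of Cnot1.

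Accumulation of these mRNAs was lower in RS for 3 of the 4 genes with enough reads to be tested. Cnot1, Cnot2 and Cnot7 fell and Cnot6 did not pass the test, which was edgeR's quasi-likelihood test on counts summed per gene with Benjamini-Hochberg adjustment. Over all 4823 genes tested, 31.3% were lower in RS, 1682 genes were higher, and the median log2 fold change was 0.01. No member was called higher. With 4 genes tested, the count says nothing about the group beyond these genes. How many of all genes had RPM that did not overlap between the cell types was not counted.

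Cnot1, the scaffold, had the most reads of the 6 genes. The P/D samples held 69, 124 and 87 reads of Cnot1 and the RS samples held 60, 115 and 63. Scaled to 1000000 reads of each sample (RPM), these were 283, 405 and 321 RPM in P/D spermatocytes and 189, 242 and 177 RPM in RS. Every RS sample was below every P/D sample. The fitted log2 fold change of RS over P/D was -0.61 (SE 0.16, edgeR adjusted p = 0.0013).

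Cnot2 encodes the partner of CNOT3 in the module that steadies the scaffold. Its reads numbered 10, 23 and 22 in P/D samples and 12, 15 and 9 in RS, or 41.0, 75.2 and 81.1 against 37.9, 31.6 and 25.3 RPM. P/D replicate 1 was nearest to the RS samples, and the groups did not overlap. The log2 fold change of Cnot2 was -0.97 (SE 0.32, edgeR adjusted p = 0.00838). The call was lost with DESeq2 (adjusted p = 0.0605) and without P/D replicate 3 (edgeR adjusted p = 0.0505).

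Cnot7 encodes a CAF1-type nuclease. It had 17, 21 and 16 reads in P/D samples and 11, 14 and 10 in RS. In RPM these were 69.7, 68.6 and 59.0 in P/D spermatocytes and 34.7, 29.5 and 28.1 in RS. The samples of each cell type lay close together and far from those of the other. The log2 fold change of Cnot7 was -0.99 (SE 0.31, edgeR adjusted p = 0.00542), and its adjusted p was between 0.00126 and 0.0473 under the other settings tried.

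Cnot6 encodes a CCR4-type nuclease. It had 5, 11 and 9 reads in P/D samples and 10, 11 and 15 in RS, or 20.5, 36.0 and 33.2 against 31.6, 23.2 and 42.1 RPM. The groups overlapped, although P/D replicate 1 was the lowest of the 6 samples and RS replicate 3 the highest. The log2 fold change of Cnot6 was 0.15 (SE 0.37, edgeR adjusted p = 0.735), with an error larger than the change itself. Of the 61 lines that list a Cnot6 read, 6 repeat a read already listed on the same contig, which leaves 55 distinct reads.

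The remaining genes were below the count filter. Tob1, the adaptor between CAF1 enzymes and the poly(A)-binding protein, had 9, 14 and 6 reads in P/D samples and 5, 6 and 4 in RS, or 36.9, 45.8 and 22.1 against 15.8, 12.6 and 11.2 RPM. Every RS sample of Tob1 was below every P/D sample. In the fit with no filter on counts, which tested 6986 genes and called 27.4% lower in RS, the log2 fold change of Tob1 was -1.35 (SE 0.47, edgeR adjusted p = 0.00817). Pan3 had 6 reads in all, 1 in P/D replicate 3 and 5 in RS replicate 2. In the same fit its log2 fold change was 1.60 with an SE of 1.36 (edgeR adjusted p = 0.312), a difference that was not detectable at this depth.

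**Figure D1:**
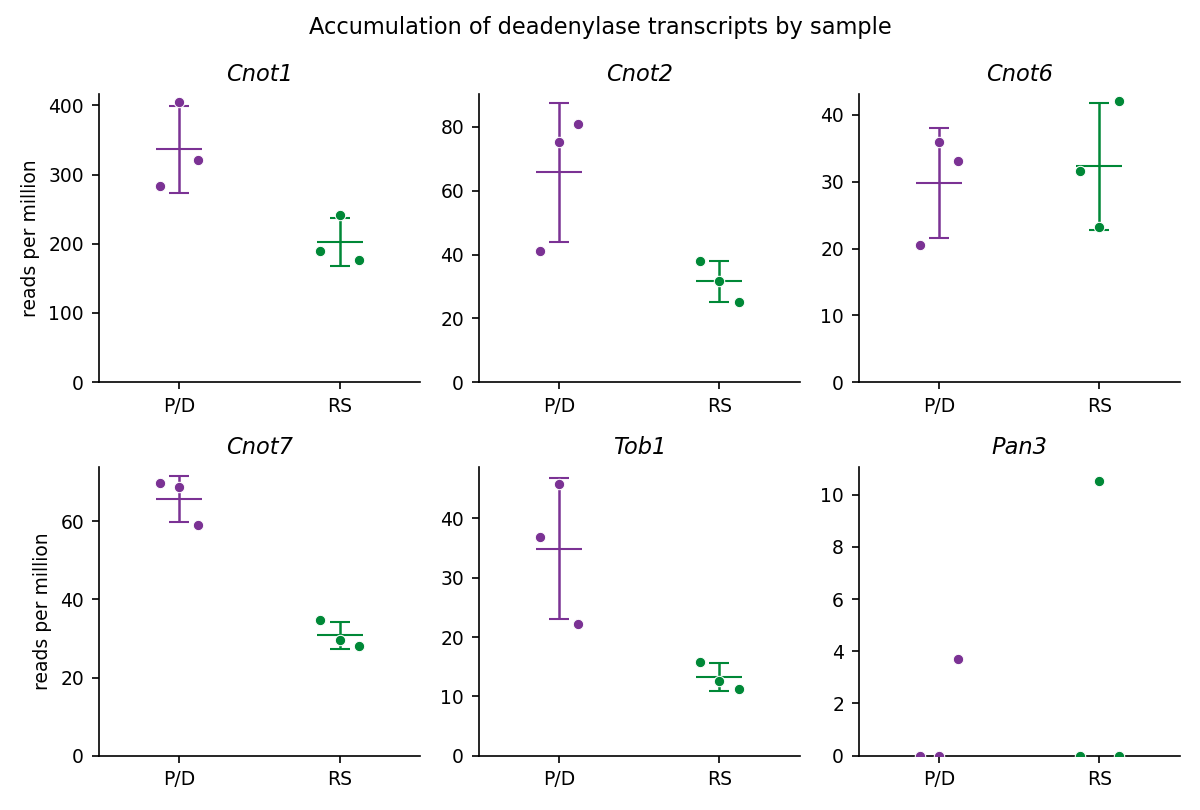
RPM of each of the 6 genes (vertical axes, linear and starting at 0, a scale for each gene) in the P/D and RS samples (horizontal axes). Points are samples, horizontal lines are means and bars are the SD over 3 samples, left out for Pan3. For Cnot1, Cnot2, Cnot7 and Tob1 all RS samples lie below all P/D samples, and for Cnot6 the samples mix. The number of all genes that separate in this way was not counted.

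The tails of the same mRNAs were longer in RS for 3 of the 4 genes tested. Mean tail lengths of Cnot1, Cnot2 and Cnot6 rose, and Cnot7 did not pass the test (limma on the mean tail of each gene in each sample, for genes with at least 10 reads in at least 2 samples of 1 cell type, Benjamini-Hochberg adjustment). Most genes had longer tails in RS. Of 5250 genes tested, 55.0% were longer and 2.08% were shorter, and the median difference was 35.0 nt. The count of 3 of 4 is therefore not far from that background. How many of all genes had mean tails that did not overlap between the cell types was not counted.

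Cnot1 tails averaged 110, 107 and 113 nt in the P/D samples and 155, 158 and 163 nt in RS. The samples of each cell type lay close together, and the groups were far apart. The difference was 48.4 nt (SE 5.05, limma adjusted p = 0.000449). It was larger than that of 64.6% of the genes tested.

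Cnot2 had the shortest tails of these genes in P/D spermatocytes and the largest difference. Its means were 74.0, 84.1 and 83.1 nt in P/D samples and 187, 155 and 156 nt in RS. The P/D mean of 80.4 ± 5.54 nt (SD, n = 3) was above that of 4.21% of the genes tested, and the RS mean of 166 ± 18.1 nt (SD, n = 3) was above that of 66.1%. The difference for Cnot2 was 85.8 nt (SE 9.92, limma adjusted p = 0.000646), larger than that of 97.5% of the genes.

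Cnot6 tails were long in both cell types. The means were 139, 150 and 178 nt in P/D samples and 191, 186 and 203 nt in RS. The groups did not overlap, but P/D replicate 3 came close to RS replicate 2. Cnot6 reached the read minimum through RS samples only. The difference for Cnot6 was 37.4 nt (SE 11.1, limma adjusted p = 0.0282). This call was lost with the methods' equal-variance test after adjustment (adjusted p = 0.0736), on a log2 scale (limma adjusted p = 0.0607), with the median in place of the mean (adjusted p = 0.121), with tails of 10 to 300 nt only (adjusted p = 0.110) and without either of P/D replicates 1 and 2 or either of RS replicates 1 and 3 (adjusted p between 0.0626 and 0.0864, limma).

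Cnot7 was the gene that passed in neither direction. The means were 185, 157 and 144 nt in P/D samples and 147, 158 and 128 nt in RS, and the groups overlapped. The difference was -17.7 nt (SE 12.9, limma adjusted p = 0.287). In P/D spermatocytes the mean of 162 ± 20.8 nt (SD, n = 3) was above that of 90.8% of the genes tested, and in RS the mean of 144 ± 15.1 nt (SD, n = 3) was above that of 31.8%.

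**Figure D2:**
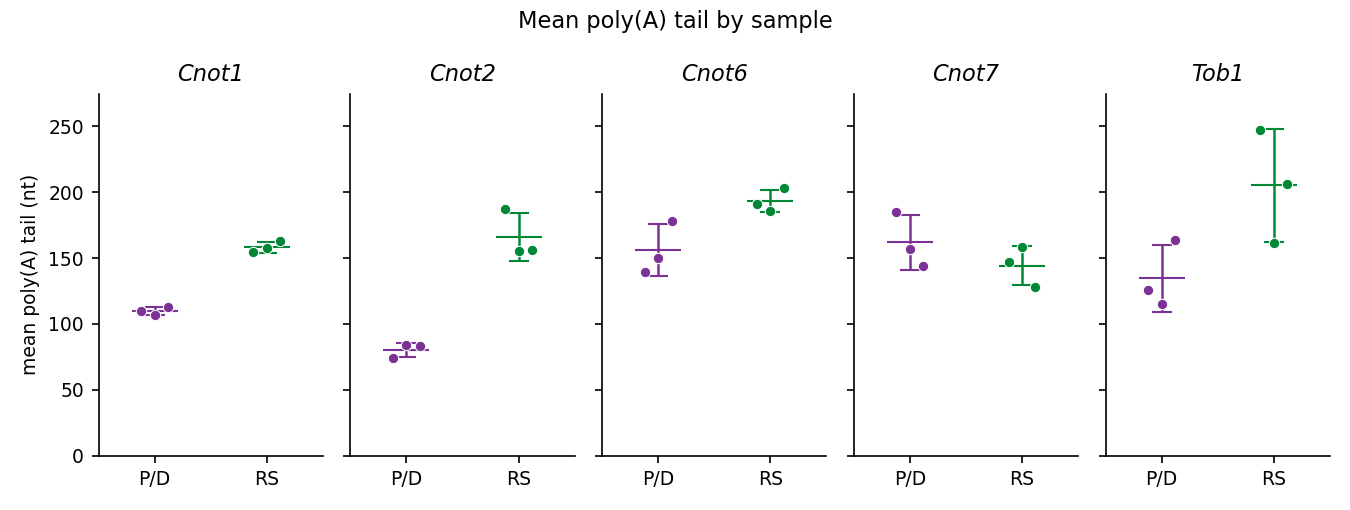
Mean poly(A) tail in nt (vertical axis, shared and starting at 0) of the 5 genes with reads in every sample, in the P/D and RS samples (horizontal axes). Points are samples, lines are means and bars are the SD over 3 samples. RS samples lie above P/D samples for Cnot1, Cnot2 and Cnot6, the groups overlap for Cnot7, and Tob1 spreads widely in RS. The number of all genes that separate in this way was not counted.

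Whether Cnot7 moved differently from the other genes was tested on the gap between genes within each sample. The mean tail of Cnot7 exceeded that of Cnot1 by 75.0, 50.3 and 31.1 nt in the P/D samples. In RS the same gap was -7.79, 0.559 and -34.5 nt, so all RS samples were below all P/D samples (exact permutation over samples, two-sided p = 0.1, the lowest that 3 against 3 allows). The gap between Cnot7 and Cnot2 was 81.7 ± 26.0 nt in P/D samples and -21.8 ± 22.1 nt in RS (SD, n = 3 each, exact p = 0.1), and that between Cnot7 and Cnot6 went from 6.19 ± 39.7 nt to -49.0 ± 23.7 nt (SD, n = 3 each, exact p = 0.2). These 3 gaps were chosen after the values were seen.

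Since most genes shifted one way, each difference was also set against the general shift, in fits chosen after the data were seen. With the median difference of 35.0 nt subtracted, 21.8% of the 5250 genes were longer and 17.4% shorter in RS. On this scale Cnot2 was longer by 50.8 nt (SE 9.92, limma adjusted p = 0.0125) and Cnot7 had -52.7 nt (SE 12.9, limma adjusted p = 0.0231). Cnot1 had 13.4 nt (SE 5.05) and Cnot6 had 2.46 nt (SE 11.1), and neither passed the test (limma adjusted p = 0.0810 and 0.873). Subtracting instead the median of the gene means in each sample removed 43.6 nt, more than the shift of the median gene, so that the median over all genes became -8.60 nt, with 13.4% longer and 23.9% shorter. Cnot2 then had 42.2 nt (SE 10.2, limma adjusted p = 0.0229) and Cnot7 had -61.3 nt (SE 12.9, limma adjusted p = 0.0155), while Cnot1 had 4.80 nt and Cnot6 had -6.13 nt (limma adjusted p = 0.480 and 0.689). Under both references Cnot2 lay above the general shift and Cnot7 below it. Neither reference takes account of the tail a gene had in P/D spermatocytes, where Cnot2 was above 4.21% and Cnot7 above 90.8% of the genes tested. Whether the shift varies with that tail was not tested.

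**Figure D3:**
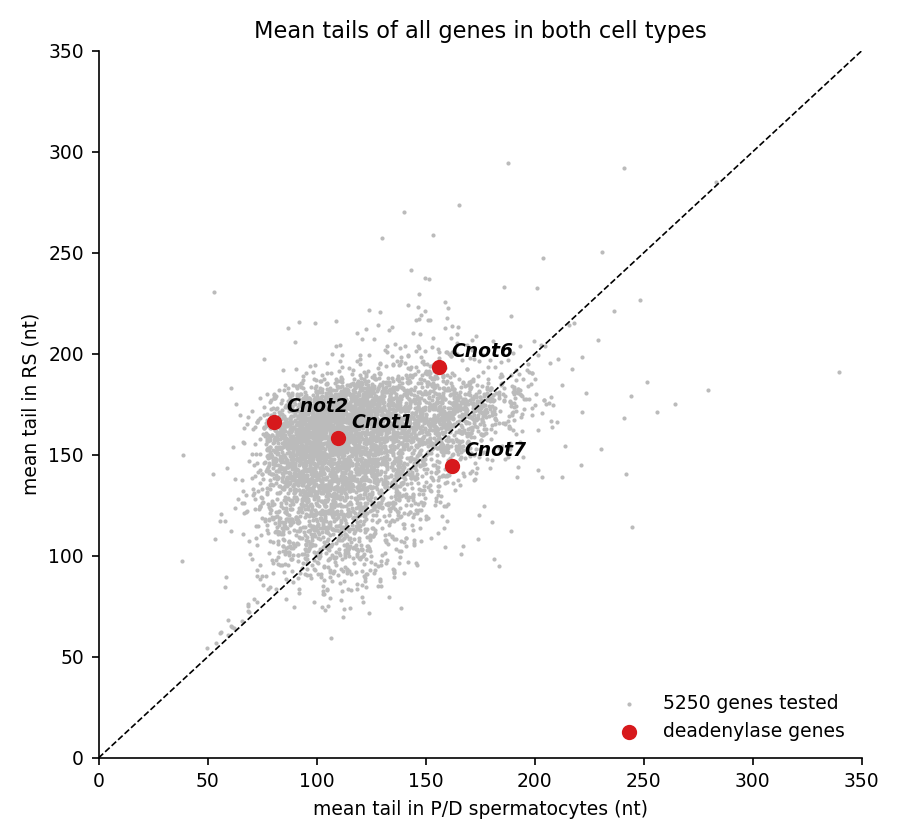
Mean tail in nt in RS (vertical axis) against P/D spermatocytes (horizontal axis), each the mean over samples, for the 5250 genes tested (grey) and the 4 deadenylase genes among them (red). The dashed line marks equal tails, and Cnot7 is the member below it, while Cnot2 lies at the left edge of the cloud.

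Tob1 was under the read minimum and was not tested for tails. Its means were 126, 115 and 163 nt in P/D samples and 248, 162 and 206 nt in RS, and RS replicate 2 overlapped the P/D samples (two-sided exact permutation test, p = 0.2). Of its reads, 14 of 29 in P/D spermatocytes and 13 of 15 in RS had tails of at least 120 nt. The Pan3 read in P/D replicate 3 had a tail of 185 nt, and the 5 in RS replicate 2 averaged 206 nt.

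The order of the genes by mean tail changed between the cell types. In P/D spermatocytes it ran from Cnot2 through Cnot1, Tob1 and Cnot6 to Cnot7, over a range of 81.7 nt between the lowest and highest mean. The samples of Cnot2 and Cnot1 did not overlap, nor did those of Cnot1 and Tob1, while Tob1, Cnot6 and Cnot7 overlapped their neighbours. In RS the order was Cnot7, Cnot1, Cnot2, Cnot6 and Tob1 over a range of 60.8 nt, and every neighbour in that order overlapped the next.

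The reads themselves spread widely within a gene. Pooled over the 3 samples, the median Cnot1 tail was 97.9 nt in P/D spermatocytes (280 reads, quartiles 65.2 and 146 nt) and 160 nt in RS (238 reads, quartiles 130 and 184 nt). For Cnot2 the median was 73.4 nt in P/D spermatocytes (55 reads, quartiles 47.7 and 99.2 nt) and 174 nt in RS (36 reads, quartiles 136 and 194 nt). The upper quartile of Cnot2 in P/D spermatocytes thus lay below its lower quartile in RS. Tails under 30 nt were found on 1 of 10, 3 of 23 and 1 of 22 Cnot2 reads in the P/D samples and on none in RS. For Cnot6 the median was 148 nt in P/D spermatocytes (25 reads) and 180 nt in RS (36 reads), and for Cnot7 it was 160 nt (54 reads) and 147 nt (35 reads).

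**Figure D4:**
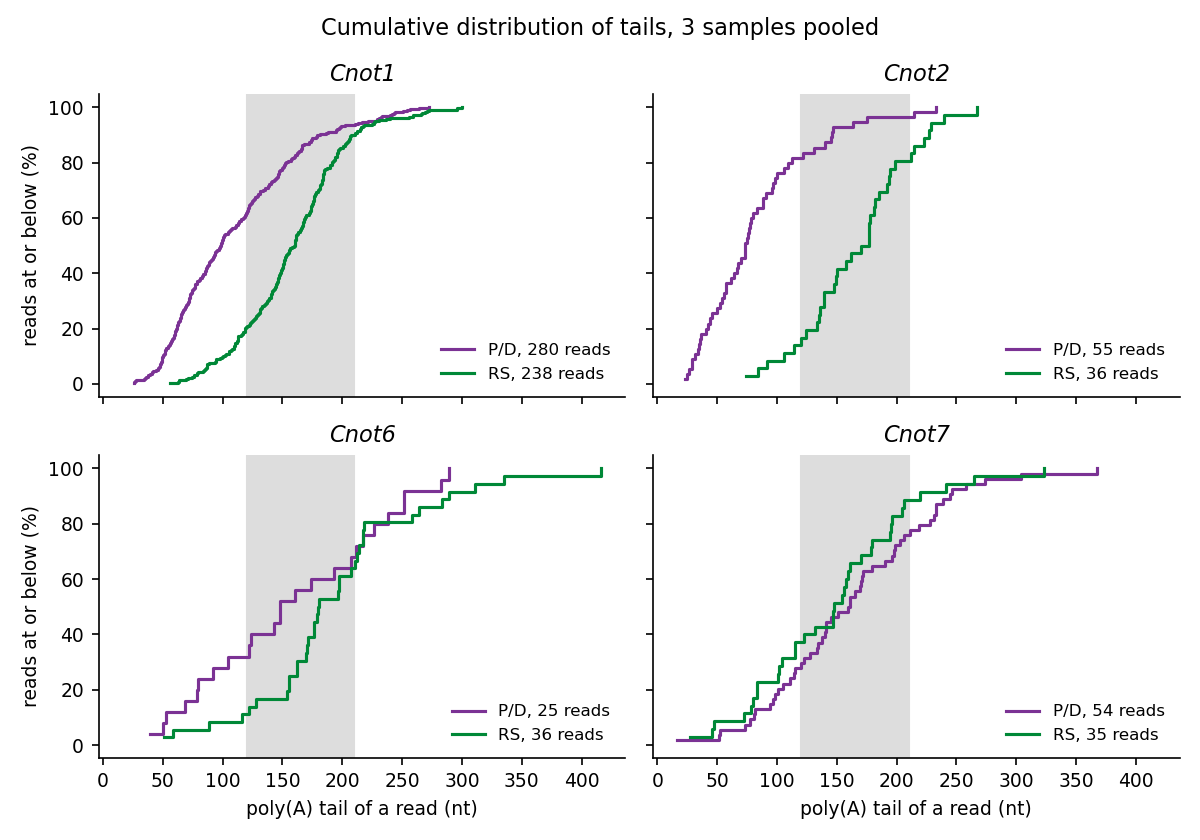
Percent of reads with a tail at or below the length on the horizontal axis (nt), for 4 genes, with the 3 samples of each cell type pooled. The grey band marks 120 to 210 nt. The RS curve lies to the right of the P/D curve for Cnot1 and Cnot2 up to about the end of the band, and the curves of Cnot7 run close together with RS slightly to the left.

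The share of tails from 120 to 210 nt, the class around which tails gather in RS, was taken per sample. For Cnot1 it was 30.4%, 28.2% and 36.8% of reads in P/D samples and 63.3%, 68.7% and 76.2% in RS. For Cnot2 it was 2 of 10, 3 of 23 and 3 of 22 reads in P/D samples against 8 of 12, 10 of 15 and 5 of 9 in RS. Both genes had every RS sample above every P/D sample (exact p = 0.1 each, the smallest possible), which was the case for 62.5% of the 4975 genes tested for tails that had reads in all samples. Cnot6 had 0 of 5, 3 of 11 and 6 of 9 reads of that class in P/D samples and 5 of 10, 7 of 11 and 7 of 15 in RS (exact p = 0.4). Cnot7 had 8 of 17, 12 of 21 and 5 of 16 in P/D samples and 6 of 11, 10 of 14 and 2 of 10 in RS (exact p = 0.9). The shares of Cnot6 and Cnot7 overlapped between the cell types. Tails of 30 to 120 nt took 60.5 ± 5.61% of Cnot1 reads in P/D samples and 20.1 ± 6.52% in RS (SD, n = 3 each), and 72.3 ± 8.55% and 16.3 ± 14.3% of Cnot2 reads.

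At the level of contigs, 5 of the 10 passed the filter for accumulation and 2 were lower in RS, both of Cnot1, against 30.8% of the 6005 transcripts tested. The Cnot1 gene (ENSMUSG00000036550, chromosome 8, 95719451 to 95807462, minus strand) was read on a pair of protein-coding contigs of 49 exons and on 1 contig annotated as a target of nonsense-mediated decay. The coding pair lies 7 nt apart at the 3′ ends and 2 nt apart at the 5′ ends. Reads that do not reach an exon in which the pair differs cannot tell these contigs apart. ENSMUST00000211887 fell by 0.84 on the log2 scale (SE 0.23, edgeR adjusted p = 0.00176) and ENSMUST00000098473 fell by 0.58 (SE 0.22, edgeR adjusted p = 0.0193). The second of these calls was lost with DESeq2 (adjusted p = 0.125), with at least 10 counts in every sample (edgeR adjusted p = 0.142) and without P/D replicate 2, RS replicate 1 or RS replicate 3 (edgeR adjusted p = 0.180, 0.0767 and 0.0535). The decay-annotated contig ENSMUST00000213006 had 8, 16 and 11 reads in P/D samples and 9, 19 and 5 in RS, with a log2 fold change of -0.52 (SE 0.37, edgeR adjusted p = 0.215).

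The 3 Cnot1 contigs had longer tails in RS. ENSMUST00000098473 differed by 53.4 nt (SE 7.57, limma adjusted p = 0.00163), ENSMUST00000211887 by 43.2 nt (SE 8.54, adjusted p = 0.00614) and ENSMUST00000213006 by 44.2 nt (SE 11.1, adjusted p = 0.0155). In P/D spermatocytes their means were 109 ± 11.3, 111 ± 9.83 and 106 ± 19.9 nt (SD, n = 3 each), so the decay-annotated contig did not stand apart from the coding ones. In all, 5 of the 6 member contigs tested were longer in RS, the other 2 of them being Cnot2 ENSMUST00000105267 and the Cnot6 contig, against 54.2% of 6990 transcripts.

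Cnot2 (ENSMUSG00000020166, chromosome 10, 116485165 to 116581500, minus strand) was split between coding ENSMUST00000105267 and ENSMUST00000169576, which is annotated as a target of nonsense-mediated decay. The coding contig took 55.0 ± 12.8% of Cnot2 reads in P/D samples and 54.4 ± 10.7% in RS (SD, n = 3 each, exact permutation p = 1). It had 5, 16 and 10 reads in P/D samples and 6, 7 and 6 in RS, so it reached the read minimum through P/D samples only. Its tails averaged 58.1, 81.7 and 84.4 nt in P/D samples and 183, 143 and 134 nt in RS, a difference of 79.0 nt (SE 14.9, limma adjusted p = 0.00501). The decay-annotated contig had 5, 7 and 12 reads with means of 90.0, 89.6 and 82.0 nt in P/D samples and 6, 8 and 3 reads with means of 191, 166 and 200 nt in RS. It was under the read minimum. The mean tails of the groups did not overlap for either contig, and how many of all transcripts separated in this way was not counted. These contigs lie 1 nt apart at their 3′ ends and 4 nt apart at their 5′ ends. Reads that do not reach an exon in which they differ cannot tell them apart. The shares and tails of each contig therefore depend on how such reads were assigned.

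Cnot7 (ENSMUSG00000031601, chromosome 8, 40492540 to 40515847, minus strand) was read on a pair of contigs with the same coding exons and different first exons, whose 5′ ends lie 4093 nt apart. ENSMUST00000132032, with the upstream first exon, had 8, 8 and 5 reads in P/D samples and 0, 2 and 1 in RS. It took 38.8 ± 7.93% of Cnot7 reads in P/D samples and 8.10 ± 7.33% in RS (SD, n = 3 each), 21 of 54 reads against 3 of 35. All RS samples were below all P/D samples (exact permutation over samples, two-sided p = 0.1, the lowest possible). This test was not planned, and how many contigs of other genes separated in this way was not counted. ENSMUST00000034012 had 9, 13 and 11 reads in P/D samples and 11, 12 and 9 in RS, with a log2 fold change of -0.48 (SE 0.35, edgeR adjusted p = 0.235). In the fit with no filter on counts, which called 21.5% of 11467 transcripts lower in RS, ENSMUST00000132032 fell by 3.13 on the log2 scale (SE 0.73, edgeR adjusted p = 8.24e-05) and ENSMUST00000034012 had -0.52 (SE 0.39, edgeR adjusted p = 0.260). Reads that stop short of the first exon cannot tell these contigs apart, and how such reads were assigned is not given in the sources used here.

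**Figure D5:**
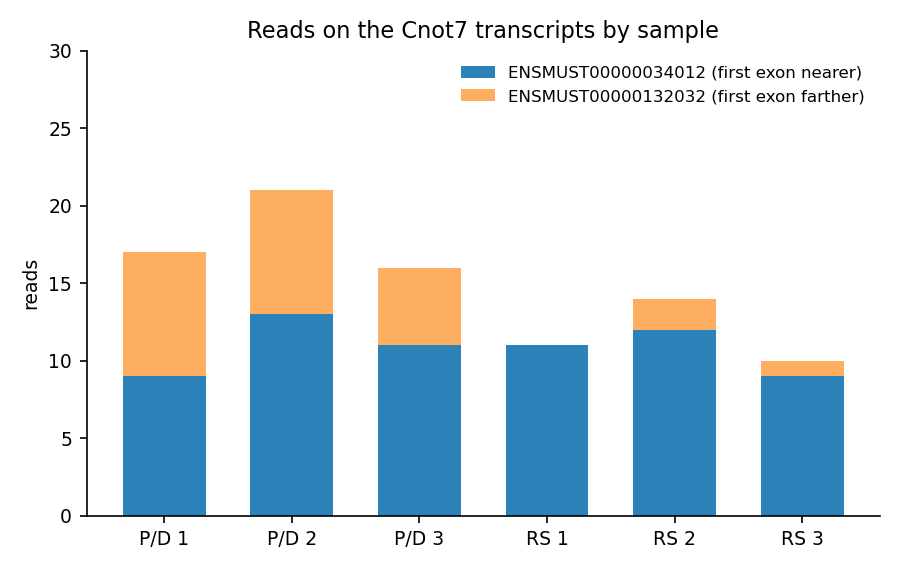
Reads on the Cnot7 contigs (vertical axis) in each sample (horizontal axis), as stacked bars, blue for ENSMUST00000034012 and orange for ENSMUST00000132032, whose first exon lies farther from the shared exons. The orange part is 5 to 8 reads in the P/D samples and 0 to 2 in RS.

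Some Cnot7 reads were also listed for its neighbour. Vps37a, which encodes a subunit of the ESCRT-I sorting complex, starts 29 nt from the start of ENSMUST00000034012 and runs on the opposite strand, and 11 of the 65 reads of that contig (4 in P/D samples and 7 in RS) were listed on a Vps37a contig too. Without them, mean Cnot7 tails were 164 ± 24.4 nt in P/D samples and 143 ± 11.3 nt in RS (SD, n = 3 each). In the fit that used each read once, the log2 fold change of Cnot7 was -1.23 (SE 0.34, edgeR adjusted p = 0.00126) and its tail difference was -20.3 nt (SE 13.4, limma adjusted p = 0.244). The share of ENSMUST00000132032 was then 41.9 ± 7.33% in P/D samples and 11.1 ± 11.1% in RS (SD, n = 3 each, exact p = 0.1). None of the reads of ENSMUST00000132032 was listed elsewhere. Cnot6 tails, with repeated lines dropped, were 152 ± 22.2 nt in P/D samples and 194 ± 13.4 nt in RS (SD, n = 3 each).

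ENSMUST00000132032 tails averaged 186, 135 and 127 nt in the P/D samples. Those of ENSMUST00000034012 averaged 184, 171 and 152 nt in P/D samples and 147, 166 and 118 nt in RS, a difference of -25.5 nt (SE 14.4, limma adjusted p = 0.182). The groups overlapped for ENSMUST00000034012, and the 3 RS reads of ENSMUST00000132032 were too few for a mean per sample to be compared.

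The other genes of the pathway came from 5 lists, whose counts stand against 1682 higher and 1510 lower (31.3%) of the 4823 genes tested for accumulation and 55.0% longer of those tested for tails. Among 12 further CCR4-NOT and deadenylase genes, 6 had a contig and 4 were tested. Cnot4, which encodes a ubiquitin ligase that binds the complex, was higher in RS with a log2 fold change of 0.65 (SE 0.29, edgeR adjusted p = 0.0479) and had tails longer by 53.1 nt (SE 8.24, limma adjusted p = 0.00209). Cnot10, Angel1 and Toe1 did not pass either test. The median log2 fold change of the 4 genes was 0.04 and their median tail difference was 19.9 nt. Of 5 other TOB and BTG genes, 3 had a contig and only Btg1, an antiproliferative adaptor of the CAF1 enzymes, was tested. It was higher in RS at a log2 fold change of 0.64 (SE 0.21, edgeR adjusted p = 0.00751), with a tail difference of 5.44 nt that did not pass (limma adjusted p = 0.524).

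Of 18 genes for proteins that recruit deadenylases, 8 had a contig and 2 were tested for accumulation, and both rose in RS. Samd4, a relative of the fly RNA-binding protein Smaug, went from 8, 9 and 8 reads in P/D samples to 119, 136 and 148 in RS, a log2 fold change of 3.64 (SE 0.24, edgeR adjusted p = 3.59e-16). Samd4 tails were long in both cell types, at 173 ± 3.85 nt in P/D samples and 174 ± 7.27 nt in RS (SD, n = 3 each). They differed by 0.723 nt (SE 5.87, limma adjusted p = 0.926). Its paralog Samd4b rose by 1.02 on the log2 scale (SE 0.28, edgeR adjusted p = 0.00192). Of the 3 genes tested for tails in that list, 0 passed, and their median difference was 0.723 nt.

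Of 19 genes of decapping and 5′ to 3′ decay, 11 had a contig. Of the 6 tested for accumulation, 4 fell and 0 rose, against 31.3% lower over all genes, at a median log2 fold change of -1.85. Lsm3, Lsm7 and Lsm4 encode ring subunits shared by the complexes that act in decapping and in splicing, and all had fewer reads in RS. Lsm3 fell by 3.72 (SE 0.41, edgeR adjusted p = 2.57e-10), Lsm7 fell by 3.53 (SE 0.45, adjusted p = 9.44e-09) and Lsm4 fell by 1.48 (SE 0.23, adjusted p = 7.25e-07) on the log2 scale. Edc4, a scaffold of the decapping complex, fell by 2.21 (SE 0.32, edgeR adjusted p = 1.56e-07). Of 8 genes tested for tails, Dcp1b, a decapping cofactor, was longer in RS by 82.1 nt (SE 5.54, limma adjusted p = 0.000244) and Lsm4 by 74.6 nt (SE 5.44, limma adjusted p = 0.000244), and the median of the 8 was 15.5 nt. Edc4, Lsm1, Lsm3, Lsm6 and Lsm7 reached the read minimum through P/D samples only.

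Of 16 exosome and SKI complex genes, 9 had a contig and 8 were tested. For accumulation 2 rose and 2 fell. Dis3, the main catalytic subunit of the exosome, rose by 2.90 on the log2 scale (SE 0.39, edgeR adjusted p = 3.6e-08) and Exosc4, a ring subunit, by 0.95 (SE 0.39, adjusted p = 0.0294). The Dis3 paralog Dis3l fell by 0.98 (SE 0.18, edgeR adjusted p = 7.15e-06) and the nuclear nuclease Exosc10 fell by 0.76 (SE 0.28, adjusted p = 0.0168). Tails were longer in RS for 6 of the 8, against 55.0% of all genes. The largest differences were 67.5 nt for Dis3l (SE 5.21), 67.0 nt for Exosc10 (SE 7.65), 60.5 nt for Exosc5 (SE 4.76) and 56.7 nt for Dis3 (SE 9.93, limma adjusted p between 0.00025 and 0.00343). The median over the 8 genes was 55.2 nt against 35.0 nt over all genes tested. Dis3 and Exosc4, both counted as longer, reached the read minimum through RS samples only. In P/D samples Dis3 had 3, 4 and 2 reads and Exosc4 had 4, 4 and 11, so these P/D means rest on few reads.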

How the data were processed

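Native RNA of the 6 samples, captured on oligo(dT) beads, was sequenced on nanopore flow cells. Basecalling, demultiplexing and alignment (minimap2, against the GENCODE transcripts of GRCm38) were done by the authors, as were the estimate of tails by Nanopolish and the removal of reads that failed its tail quality check. What the authors deposited are whole read counts of each contig, not normalized. The other measurement, the deposited tail length of each read in nt, is in a second table. Counts matched the number of tail reads for all 12114 contigs. How reads of similar contigs were assigned, and whether strand was used, is not given in the sources used here. Among 1963589 distinct reads, 4727 occurred on several contigs.

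Counts were summed per symbol and tested with edgeR 4.0.16 (TMM, filterByExpr, glmQLFit and glmQLFTest, R 4.3.3), and mean tails with limma 3.58.1 (lmFit and eBayes), in both cases over all genes or annotated transcripts, with Benjamini-Hochberg adjustment and a threshold of 0.05. Tail tests needed 10 or more reads in 2 samples of a cell type, with a mean from 2 samples on each side. RPM are counts over the total of the sample, times 1000000, and the lower bound of a tail class is included. The annotation came from GENCODE vM21. Per the methods, each mouse was sorted in its own session, so samples differ in animals and sorts, but all samples of a cell type share 1 library. The members and gene lists were chosen with earlier results of these data known. Every member was to be named, and of each other list the genes called, up to 4 in each direction in order of size.

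Both tests were tested on simulated data. With 200 of 4632 genes changed 4-fold, edgeR called 198 and 15 others, and with 200 of 5250 genes changed by 60 nt, limma called 173 and 18 others. The changed genes were drawn only from genes with more reads in all than Cnot2, Cnot6, Cnot7, Tob1 or Pan3 had. All fitted changes of member genes were under 4-fold, and of the members tested for tails only Cnot2 differed by more than 60 nt. These rates do not give the power for those members. Alternatives were DESeq2 1.42.0, RLE normalization, other filters, the methods' equal-variance test, medians, log2 tails, read weights, only tails of 10 to 300 nt, other bounds of the tail class, the replicate number as a block, and each sample left out in turn. The use of each read once, the fits relative to a median and the gaps between genes were chosen after the data were seen. Tests of the share of a contig in the reads of its gene were not planned. Cnot7 ENSMUST00000132032 and Cnot2 ENSMUST00000169576 are given although both were under the read minimum planned for contigs. A planned ratio of paralogs (Cnot7 over Cnot8, Cnot6 over Cnot6l) could not be computed because 1 gene of each pair was not analysed here. Between 9 and 124 reads of Cnot1, Cnot2 or Cnot7 stood behind a gene mean in a sample. For Cnot6 there were 5 to 15 listed reads, or 5 to 13 distinct ones. Precision is therefore limited, and counting error is only part of the error.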

Additional observations from a re-analysis of the deposited data

How the results depend on the processing

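At the gene level, 3 members were lower in RS, and alternatives gave 2 to 4. The 3 genes with longer tails became 1 with at least 20 reads in every sample, where 1 gene was tested, and 1 (with 1 gene shorter) relative to the median difference or to the sample medians. For contigs, the 2 lower in RS became 1 with DESeq2, 1 with at least 10 counts in every sample, 5 with no filter and 1 to 3 with a sample left out. The 5 contigs with longer tails became 2 with the read minimum of 10 in both cell types, 2 with at least 20 reads in every sample, 2 to 5 with a sample left out and 0 (with 1 shorter) relative to either median. The stricter filters test fewer contigs, and the cause of the other changes was not tested. Over all genes, at least 10 counts in every sample gave 789 higher and 765 lower in RS (1682 and 1510 in the report), at least 20 reads in every sample gave 1576 longer and 46 shorter tails (2887 and 109), the fit relative to the sample medians gave 701 longer and 1256 shorter, that relative to the median difference gave 1144 and 913, the adjusted equal-variance test gave 70 shorter and the fit without RS replicate 2 gave 63 shorter. Over all transcripts, the same filters gave 768 higher and 725 lower (1955 and 1848) and 1592 longer and 45 shorter (3787 and 118), no filter gave 3404 higher, the fit relative to the sample medians gave 620 longer and 1421 shorter, that relative to the median difference gave 1128 longer and 1027 shorter, and those without RS replicates 1 and 2 gave 78 and 66 shorter. No member was called higher, or called shorter other than Cnot7 relative to a median, under any alternative run. Cnot6 changed sign in accumulation without P/D replicate 1 (-0.04 for the gene, -0.14 for its contig) and without RS replicate 3 (-0.10 for both), its highest log2 fold change being 0.39 for the gene and 0.38 for the contig. Relative to the sample medians, which takes off 45.5 nt for contigs and leaves their median at -8.09 nt, Cnot6 had -6.13 nt for the gene and -8.05 nt for the contig, and Cnot1 ENSMUST00000211887 and ENSMUST00000213006 had -2.29 and -1.26 nt. Relative to the median difference these 3 contigs had 0.046, 5.80 and 6.83 nt. The 2 genes whose shares of 120 to 210 nt did not overlap stayed at 2 with other bounds, with tails of 10 to 300 nt and with each read once, and were 2 or 3 with a sample left out, but with 120 to 180 nt the difference went from 37.6 to 21.8 points for Cnot1 and from 47.4 to 28.7 points for Cnot2.

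P/D and RS samples share replicate numbers, and both cell types came from the same mice, but the sources used here do not say that a number marks the same pool. Deviations of same-numbered samples correlated at 0.065, 0.260 and 0.074 for counts and 0.0027, 0.109 and -0.0014 for tails over 1832 genes. With the replicate number as a block, 3 genes were lower, 3 had longer tails, and the contig counts were 2 and 5, as without it. Tob1 and Pan3 were under the read minimum, which limits what can be said of their tails.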
